A study of Homo sapiens with 24 samples.

Results

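The glycolytic enzyme genes HK1, HK2, PGAM1 and LDHA were followed across 24 Affymetrix microarrays of 4 human acute myeloid leukaemia cell lines. They are 4 of the 14884 genes with a named row in the value table, and their rows were found by exact symbol. Each had 1 row, and each was among the 10641 genes kept, whose mean was at or above 4.02 (the median over every row) in some group. RNA came from HL60, KG1a, MOLM14 and U937 cells that received 10 mM metformin for 24 h or were left untreated, with 3 arrays (A to C) in each of the 8 groups. Metformin is a biguanide drug, which the design text calls a complex I inhibitor (the entry enzyme of the respiratory chain), and the purpose given there was a set of genes particular to high oxidative phosphorylation (OXPHOS). The labels class KG1a and MOLM14 as high OXPHOS lines and HL60 and U937 as low OXPHOS lines, and a second label counts metformin-treated KG1a and MOLM14 as low OXPHOS. All cells were kept in exponential growth with penicillin and streptomycin. The class difference rests on 2 lines against 2. No label says whether a group's arrays stem from different cultures, and p-values therefore cover only array-to-array spread, which may be technical.

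Glycolysis turns glucose into pyruvate in the cytosol and yields ATP without oxygen, and leukaemia cells draw on it and on OXPHOS to different degrees. Hexokinases commit glucose to the pathway by phosphorylating it. HK1 is the form found in most tissues and HK2 a form that many tumours raise, and both can sit on the outer mitochondrial membrane. PGAM1, phosphoglycerate mutase, moves a phosphate group within phosphoglycerate late in the pathway. LDHA, a subunit of lactate dehydrogenase, favours the reduction of pyruvate to lactate, which returns the NAD+ that glycolysis needs. HK2 and LDHA are textbook targets of the hypoxia factor HIF-1 and of MYC.

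The promoters of LDHA and HK2 are shown because these factors are known to bind short letter strings there, and because metformin went with a fall of the LDHA signal and no detected change of the HK2 signal. The windows are RefSeq sequences of GRCh38.p14, plus strand, from 250 bases before to 50 bases from the start site. Capitals mark ACGTG (part of the HIF site), GCGTG (another form of it) and CACGTG (the E-box of MYC) on either strand, so CACGT and CACGC are the first 2 read on the other strand.
LDHA, chr11:18394313-18394612: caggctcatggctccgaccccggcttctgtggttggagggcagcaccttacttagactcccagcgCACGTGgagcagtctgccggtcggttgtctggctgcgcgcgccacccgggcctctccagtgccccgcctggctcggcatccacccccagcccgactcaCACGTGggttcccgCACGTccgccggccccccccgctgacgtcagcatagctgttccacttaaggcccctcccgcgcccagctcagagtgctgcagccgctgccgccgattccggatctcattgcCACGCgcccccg
HK2, chr2:74833877-74834176: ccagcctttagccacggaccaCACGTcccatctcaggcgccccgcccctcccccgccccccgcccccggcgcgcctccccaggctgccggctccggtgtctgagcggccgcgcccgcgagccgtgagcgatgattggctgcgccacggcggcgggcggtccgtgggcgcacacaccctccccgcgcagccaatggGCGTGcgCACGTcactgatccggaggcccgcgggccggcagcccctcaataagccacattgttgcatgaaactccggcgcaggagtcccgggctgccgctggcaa
The LDHA window held CACGTG 2 times, ACGTG 5 times and GCGTG 1 time. Each CACGTG counts as ACGTG on both strands. The HK2 window held ACGTG 2 times, GCGTG 1 time and CACGTG 0 times. Of 35116 windows of 300 bases in the table, 21.4% held ACGTG, 36.5% held GCGTG, 48.4% held either and 7.26% held CACGTG. A second HK2 window further downstream held CACGTG 2 times. HK1 has 7 windows, 2 of them with GCGTG. The single PGAM1 window, chr10:97427568-97427867, held none of the 3 strings. It lies downstream of the RefSeq gene start at 97426191, so the sequence at that gene start was not searched. A match describes letters only and is no evidence of binding.

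The arrays were alike in overall scale. Array medians lay between 3.99 and 4.08 and correlations within a group between 0.989 and 0.996. HL60 control C and U937 control C had the narrowest interquartile ranges, 1.90 and 1.99, against up to 2.31 elsewhere, and earlier work on these data set these and U937 metformin A apart. The labelled lines were checked against markers. CD34, a progenitor marker, averaged 11.28 in metformin-treated and 11.24 in untreated KG1a and between 3.44 and 3.61 in the groups of the other lines. Of 4 stem and progenitor markers with a row, 1 reached 4.02 in HL60, 4 in KG1a, 2 in MOLM14 and 1 in U937. KIT, another of them, averaged 4.37 in metformin-treated and 4.24 in untreated MOLM14, above 3.99 and 4.17 in KG1a. MPO, the granule enzyme myeloperoxidase, averaged 12.53 in metformin-treated and 12.48 in untreated HL60, and 7.62 in metformin-treated and 8.93 in untreated MOLM14. LYZ, the lysozyme gene of monocytic cells, lay at 9.40 to 9.88 in MOLM14 and U937, but CD14, a defining monocyte marker, stayed under 4.02 in every group. Of 4 monocytic markers with a row, 3 reached 4.02 in HL60, 1 in KG1a, 3 in MOLM14 and 2 in U937. Of 4 granulocytic markers with a row, 4 reached it in HL60, 1 in KG1a, 4 in MOLM14 and 3 in U937, and the granule protease gene PRTN3 averaged 11.36 in untreated HL60, 12.26 in untreated MOLM14 and 11.82 in untreated U937.

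Some of these markers moved with metformin. In HL60, PRTN3 averaged 10.16 with metformin and 11.36 in untreated cells, the progenitor factor gene GATA2 5.11 with metformin and 5.76 in untreated cells, and LYZ 6.77 with metformin and 7.26 in untreated cells. Markers of the same lists also went the other way in HL60. The granulocytic marker CTSG averaged 10.16 with metformin and 9.81 in untreated cells, and the monocytic marker CD86 4.58 with metformin and 4.41 in untreated cells. In MOLM14, besides MPO, the receptor gene CSF1R averaged 5.33 with metformin and 5.99 in untreated cells. The part of these shifts in the results below was not tested.

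PGAM1 had the largest metformin differences of the 4 genes, and its signal fell. In HL60 the arrays read 7.29, 7.12 and 6.97 with metformin, against 8.42, 8.06 and 8.04 in untreated cells. In U937 they read 7.50, 7.60 and 7.53 with metformin, against 8.19, 8.24 and 8.25 in untreated cells. Every metformin array lay below every untreated one in both lines. In KG1a the arrays read 7.34, 7.56 and 7.58 with metformin, against 7.77, 7.74 and 7.97 in untreated cells, again without overlap. In MOLM14 they read 8.25, 8.17 and 8.39 with metformin, against 8.99, 8.62 and 8.32 in untreated cells, and the ranges overlapped at untreated array C.

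The fitted PGAM1 difference (metformin minus control, log2, ± SE) was -1.05 ± 0.13 in HL60, where the signal was 2.06-fold lower (adjusted p = 1.67e-06). It was -0.68 ± 0.13 in U937, 1.60-fold lower (adjusted p = 7.39e-04). In KG1a, -0.33 ± 0.13 did not pass (adjusted p = 0.199), with a 95% interval of -0.60 to -0.06, and in MOLM14, -0.37 ± 0.13 did not pass either (adjusted p = 0.0976), with an interval of -0.64 to -0.11. Without MOLM14 control C the MOLM14 difference was -0.53 and passed (adjusted p = 0.0162). Averaged over the lines PGAM1 fell by 0.61 ± 0.06, or 1.52-fold (adjusted p = 1.20e-07), the 20th lowest difference of 10641 genes. The test was limma's moderated test, adjusted by Benjamini-Hochberg over all kept genes, with a threshold of 0.05. An exact two-sided permutation test over 160000 relabellings within lines gave p = 2.5e-05, with a lower mean in 4 of 4 lines, where the smallest p possible was 1.25e-05.

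The identity of the PGAM1 row is less certain than that of the other 3. RefSeq places PGAM1 on chromosome 10, but the 10 nearest named rows of the value table all belong to chromosome 12 genes, whereas the 10 neighbours of the HK1, HK2 and LDHA rows lie on chromosomes 10, 2 and 11, where these genes are. RefSeq lists 13 PGAM1 pseudogenes, and PGAM4 on chromosome X is a near-identical copy. Whether the row read PGAM1 messenger RNA or that of a copy was not tested. PGAM4's own row fell too, by 0.25 ± 0.09 averaged over the lines (adjusted p = 0.0300), and the signals of such copies cannot be told apart with certainty. LDHA has 6 pseudogenes in RefSeq.

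LDHA fell by less than PGAM1. In HL60 its arrays read 8.49, 8.53 and 8.39 with metformin, against 9.21, 9.04 and 8.71 in untreated cells. In U937 they read 8.23, 7.91 and 7.93 with metformin, against 8.60, 8.54 and 8.23 in untreated cells. The metformin arrays were the lower ones in both lines, in U937 only just, since both groups touch 8.23. In KG1a the arrays read 8.47, 8.48 and 8.63 with metformin, against 8.84, 8.64 and 8.63 in untreated cells, which meet at 8.63 without crossing. In MOLM14 they read 8.31, 8.14 and 8.29 with metformin, against 8.41, 8.24 and 8.50 in untreated cells, and the ranges overlapped.

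The LDHA difference was -0.52 ± 0.12 in HL60, 1.43-fold lower (adjusted p = 0.00221), and -0.43 ± 0.12 in U937, 1.35-fold lower (adjusted p = 0.0126). It was -0.18 ± 0.12 in KG1a (adjusted p = 0.506) and -0.14 ± 0.12 in MOLM14 (adjusted p = 0.636). The mean over lines was -0.32 ± 0.06, 1.25-fold lower (adjusted p = 1.99e-04), the 279th lowest of 10641, and the exact permutation test gave p = 0.000162 with 4 of 4 lines lower. The lowest untreated LDHA arrays of HL60 and U937 were the C arrays with the narrow ranges. U937 metformin A was the highest treated LDHA array of U937. Leaving out these 3 arrays therefore had to widen both falls, and the LDHA difference was then -0.66 in HL60 and -0.65 in U937. The U937 call was lost without untreated array A (-0.36, adjusted p = 0.0719), untreated array B (-0.39, adjusted p = 0.0570), metformin array B (-0.38, adjusted p = 0.0533) or metformin array C (-0.39, adjusted p = 0.0542).

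HK1 changed little, and HL60 was the only line in which its fall passed. There its arrays read 3.86, 4.11 and 3.93 with metformin, against 4.32, 4.16 and 4.39 in untreated cells, with no overlap. The difference of -0.32 ± 0.08 passed (adjusted p = 0.00428), but both groups lay close to 4.02, where a change on the array is compressed. In U937 the arrays read 6.51, 6.59 and 6.63 with metformin, against 6.82, 6.67 and 6.83 in untreated cells, also without overlap, and -0.19 ± 0.08 did not pass (adjusted p = 0.0965). In KG1a they read 6.28, 6.41 and 6.28 with metformin, against 6.35, 6.35 and 6.42 in untreated cells, a difference of -0.05 ± 0.08 (adjusted p = 0.828). In MOLM14 they read 5.30, 5.22 and 5.27 with metformin, against 5.23, 5.15 and 5.19 in untreated cells, a difference of 0.07 ± 0.08 (adjusted p = 0.735). The ranges overlapped in these 2 lines. Averaged over the lines HK1 fell by 0.12 ± 0.04 (adjusted p = 0.0177; exact permutation p = 0.012, 3 of 4 lines lower). That call needed both HL60 and U937. Without HL60 the mean was -0.060 (adjusted p = 0.356), and without U937 it was -0.10 (adjusted p = 0.119). Without the 3 arrays set apart it was -0.10 (adjusted p = 0.0804).

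HK2 showed no detected metformin change in any line. In HL60 its arrays read 8.05, 8.24 and 8.12 with metformin, against 8.13, 7.96 and 8.05 in untreated cells. In KG1a they read 7.18, 7.40 and 7.46 with metformin, against 7.45, 7.21 and 7.32 in untreated cells. The groups overlapped in both, as they did in the other 2 lines. In MOLM14 the arrays read 6.99, 6.60 and 6.82 with metformin, against 6.54, 6.73 and 6.77 in untreated cells. In U937 they read 7.59, 7.47 and 7.47 with metformin, against 7.55, 7.80 and 7.56 in untreated cells. The differences lay between -0.13 ± 0.10 (U937, adjusted p = 0.446) and 0.13 ± 0.10 (MOLM14, adjusted p = 0.614). The mean over lines was 0.03 ± 0.05 (adjusted p = 0.738; exact permutation p = 0.617), with a 95% interval of -0.08 to 0.13, so a fall as large as that of LDHA lies outside it.

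**Figure D1:**
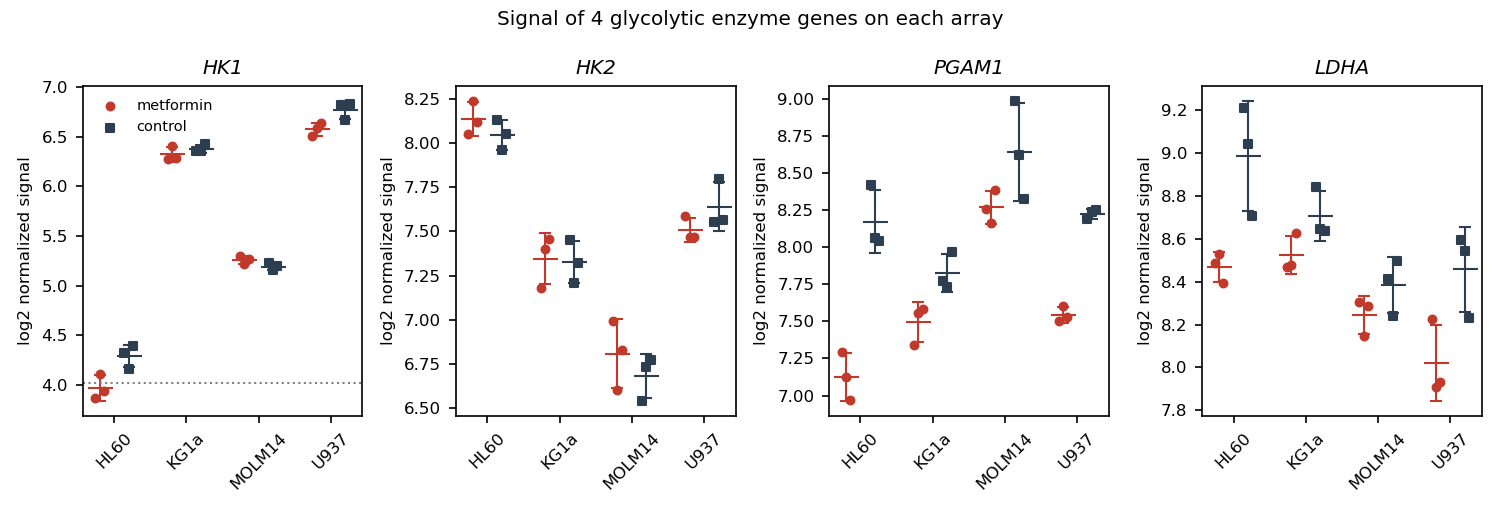
Array values (log2 signal) of HK1, HK2, PGAM1 and LDHA in the 8 groups, metformin left of control in each line, with points for the 3 arrays and bars for the mean ± SD (n = 3). PGAM1 and LDHA sit lower with metformin in HL60, KG1a and U937, HK2 overlaps in all 4 lines, and HK1 in HL60 lies at the dotted line of 4.02, the median of all rows.

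In HL60, 3 of the 4 genes were called lower, where 9.56% of all kept genes were. In U937 it was 2 of 4, where 9.74% of all genes were called lower. In KG1a and MOLM14 none was called, where 1.67% and 2.57% of all genes were called lower. This does not show that nothing changed there, and the PGAM1 intervals given above lay below 0 in both lines. In simulated data, of 100 genes changed by 0.3, 26% were called in HL60, 24% in KG1a, 21% in MOLM14 and 20% in U937. For the mean over lines 3 of 4 were called lower, against 16.1% of all genes. PGAM1 and LDHA each had metformin arrays wholly below the untreated ones in 3 lines, as had 5.88% of all genes. By line, the groups did not overlap for 3 of the 4 genes in HL60 (37.2% of all genes, in either direction) and 3 in U937 (29.9%), for 2 in KG1a (21.0%) and for 0 in MOLM14 (26.4%). The median difference of all genes lay between -0.02 (KG1a) and 0.00. In RNA from bulk cultures, fewer cells of a kind and less RNA per cell cannot be told apart.

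**Figure D2:**
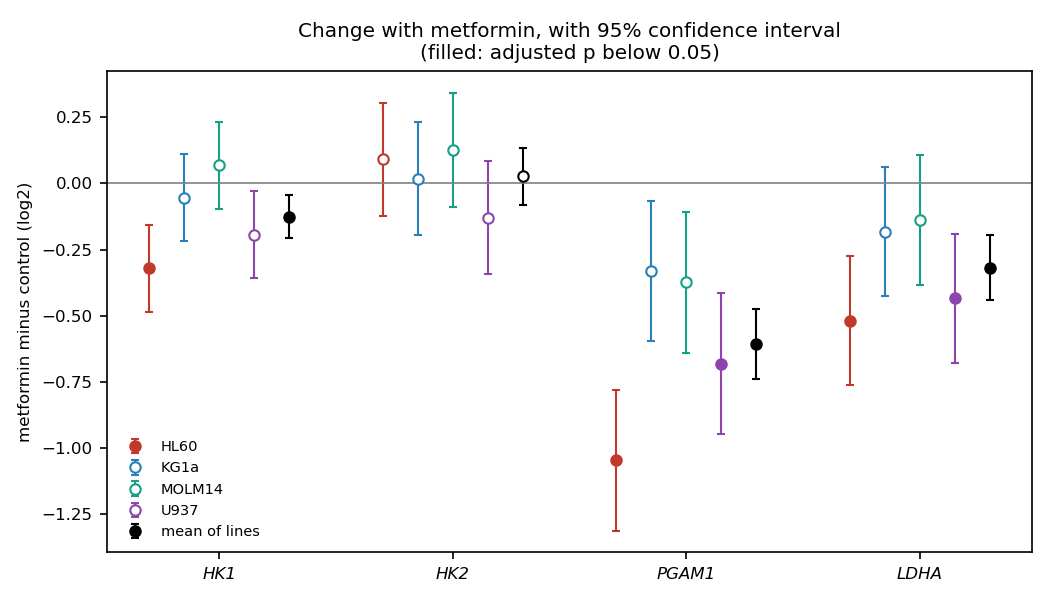
Metformin minus control (log2) of HK1, HK2, PGAM1 and LDHA in each line and averaged over the lines, with 95% intervals from limma. Filled points passed an adjusted p of 0.05: PGAM1 and LDHA in HL60 and U937, HK1 in HL60, and all but HK2 in the mean.

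Whether the genes moved by different amounts was tested within arrays, since a difference of 2 genes on 1 array does not depend on a shift of that array's overall level. It can still depend on how widely the array's values spread, and the interquartile ranges differed as given above. All 6 pairs were compared with an exact two-sided permutation test within lines, and p-values were adjusted over the 6 pairs. The PGAM1 change lay below the LDHA change by 0.29 (adjusted p = 0.00553), below the HK1 change by 0.48 (adjusted p = 7.5e-05) and below the HK2 change by 0.63 (adjusted p = 0.0001). The LDHA change lay below the HK1 change by 0.19 (adjusted p = 0.0207) and below the HK2 change by 0.34 (adjusted p = 0.0001). Each of these held its sign in 4 of 4 lines. The 2 hexokinases differed least: the HK1 change minus the HK2 change was -0.15 on average (adjusted p = 0.0294), -0.41 in HL60 and between -0.07 and -0.06 in the other lines. Leaving out KG1a metformin C, MOLM14 control A, MOLM14 metformin A, U937 control A, U937 control C or U937 metformin A ended that call, at -0.14 to -0.13 (adjusted p = 0.0527 to 0.0611).

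**Figure D3:**
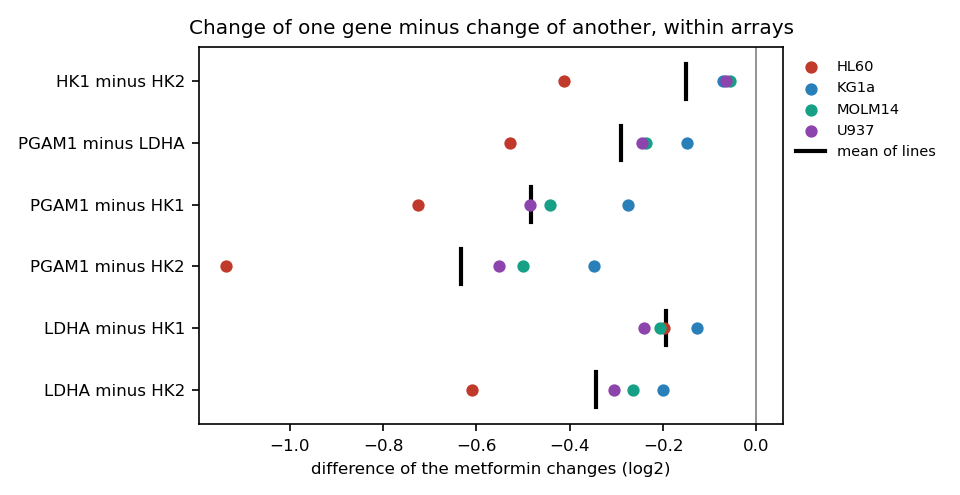
Difference of the metformin change (log2) between 2 of the 4 genes, with a point for each line and a bar for the mean of lines. Every point lies below 0, and HL60 is farthest from it in all pairs except LDHA minus HK1.

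The PGAM1 response depended on the line. The moderated F test of equal responses gave F = 6.65 (adjusted p = 0.0281), a test that 10.0% of all genes passed. HL60 fell by 0.72 ± 0.18 more than KG1a (adjusted p = 0.0137, lower in 2.15% of all genes) and by 0.67 ± 0.18 more than MOLM14 (adjusted p = 0.0311, lower in 1.20%). The HL60 minus U937 difference of -0.37 ± 0.18 did not pass (adjusted p = 0.289). The F test was lost without HL60 control A (4.78, adjusted p = 0.0734), HL60 metformin B (5.54, adjusted p = 0.0588), HL60 metformin C (4.83, adjusted p = 0.0817) or KG1a metformin B (5.82, adjusted p = 0.0506), and the HL60 minus MOLM14 difference without any 1 of 7 arrays (HL60 control A, HL60 metformin B or C, MOLM14 control B or C, MOLM14 metformin A or C), at -0.68 to -0.51 (adjusted p = 0.0572 to 0.103). HK1 had 1 passing pair, HL60 minus MOLM14 (-0.39 ± 0.11, adjusted p = 0.0447), and its F test did not pass (4.54, adjusted p = 0.0882). That pair was lost when any of 17 single arrays was left out, and quantile normalization gave -0.33 (adjusted p = 0.137). LDHA (F = 2.49, adjusted p = 0.268) and HK2 (F = 1.19, adjusted p = 0.552) passed neither the F test nor any of the 6 pairs. Without the 3 arrays set apart LDHA did pass, with F = 9.77 (adjusted p = 0.00851) and with HL60 minus KG1a at -0.48 (adjusted p = 0.0224), HL60 minus MOLM14 at -0.52 (adjusted p = 0.0175) and MOLM14 minus U937 at 0.51 (adjusted p = 0.0418). Leaving out these arrays had to widen the LDHA falls in HL60 and U937, as given above. Over all genes, the difference of response passed in 8.47% for HL60 and KG1a, 4.81% for HL60 and MOLM14, 4.67% for HL60 and U937, 1.05% for KG1a and MOLM14, 2.27% for KG1a and U937 and 2.11% for MOLM14 and U937.

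By OXPHOS class, the PGAM1 response of the high OXPHOS lines minus that of the low OXPHOS lines was 0.51 ± 0.13 (adjusted p = 0.0160), a smaller fall in KG1a and MOLM14. HK1 gave 0.27 ± 0.08 (adjusted p = 0.0448), LDHA 0.32 ± 0.12 (adjusted p = 0.111) and HK2 0.09 ± 0.10 (adjusted p = 0.671, 95% interval -0.12 to 0.31). So 2 of the 4 were called higher, against 2.05% of all genes. The classes hold 2 lines each, and the PGAM1 value was 0.33 without HL60 (adjusted p = 0.264) and 0.49 without KG1a (adjusted p = 0.127). The HK1 value was lost without HL60 (0.20), KG1a (0.33) or MOLM14 (0.20), and in 19 of 24 fits that each left out 1 array. LDHA passed without HL60 control C (0.39, adjusted p = 0.0335), without all 3 arrays set apart (0.49, adjusted p = 0.00240) and with quantile normalization (0.34, adjusted p = 0.0331). Leaving out the 3 arrays widens the LDHA falls of the low OXPHOS lines, as given above, and so raises this difference.

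The untreated lines differed in all 4 genes, each past the F test, as were 83.2% of all genes. HK1 varied most. Its untreated means were 6.77 ± 0.09 in U937, 6.38 ± 0.04 in KG1a, 5.19 ± 0.04 in MOLM14 and 4.29 ± 0.11 in HL60 (log2, SD, n = 3 each), a span of 2.48, and all 6 pairs of lines differed. On this scale the span is 5.58-fold, but HL60 lies close to 4.02, where differences are compressed, so the fold may be understated. HK2 ran in another order, with 8.05 ± 0.09 in HL60, 7.64 ± 0.14 in U937, 7.33 ± 0.12 in KG1a and 6.68 ± 0.12 in MOLM14, a span of 1.37 or 2.58-fold, and all 6 pairs differed. The KG1a and U937 call was lost without KG1a control B (-0.25, adjusted p = 0.0642) or U937 control B (-0.23, adjusted p = 0.0818). HL60 thus held the lowest HK1 and the highest HK2 signal of the 4 lines. Levels of different genes are not set against each other, since each row has its own probes.

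PGAM1 and LDHA spanned less. Untreated PGAM1 was 8.64 ± 0.33 in MOLM14, 8.23 ± 0.03 in U937, 8.17 ± 0.21 in HL60 and 7.82 ± 0.13 in KG1a, a span of 0.82 or 1.76-fold. 5 of the 6 pairs passed, and HL60 and U937 did not differ beyond their spread (-0.05, adjusted p = 0.761). Its HL60 minus KG1a difference of 0.35 was lost without HL60 control A (0.23, adjusted p = 0.167), KG1a control A (0.32, adjusted p = 0.0695) or KG1a control B (0.30, adjusted p = 0.0838), and MOLM14 minus U937 (0.42) without MOLM14 control A (0.25, adjusted p = 0.0989). Untreated LDHA was 8.99 ± 0.26 in HL60, 8.71 ± 0.12 in KG1a, 8.46 ± 0.20 in U937 and 8.38 ± 0.13 in MOLM14, a span of 0.60 or 1.52-fold. 4 of its 6 pairs passed. KG1a minus U937 (0.25, adjusted p = 0.0717) and MOLM14 minus U937 (-0.07, adjusted p = 0.635) did not, and HL60 minus KG1a, at adjusted p = 0.0458, was lost when any of 10 single arrays was left out (HL60 control A or B, HL60 metformin A or B, KG1a control B or C, KG1a metformin B, MOLM14 control A, MOLM14 metformin A or C), with values of 0.17 to 0.28. In all, 21 of the 24 pairs of lines passed, where each of the 6 pairs passed in 55.7% to 61.9% of all genes (HL60 and KG1a 57.4%, HL60 and MOLM14 56.6%, HL60 and U937 55.9%, KG1a and MOLM14 61.1%, KG1a and U937 61.9%, MOLM14 and U937 55.7%).

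The metformin groups kept the untreated order of the lines for HK1 and HK2. HK1 averaged 6.58 ± 0.06 in U937, 6.32 ± 0.07 in KG1a, 5.26 ± 0.04 in MOLM14 and 3.97 ± 0.13 in HL60 with metformin, and HK2 averaged 8.14 ± 0.09 in HL60, 7.51 ± 0.07 in U937, 7.35 ± 0.15 in KG1a and 6.81 ± 0.20 in MOLM14. PGAM1 with metformin was 8.27 ± 0.11 in MOLM14, 7.55 ± 0.05 in U937, 7.50 ± 0.13 in KG1a and 7.13 ± 0.16 in HL60, so HL60 became the lowest line and the U937 and KG1a arrays overlapped. LDHA with metformin was 8.52 ± 0.09 in KG1a, 8.47 ± 0.07 in HL60, 8.25 ± 0.09 in MOLM14 and 8.02 ± 0.18 in U937, with overlap of KG1a with HL60 and of MOLM14 with U937.

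In untreated cells, the high OXPHOS lines minus the low OXPHOS lines gave -0.84 ± 0.07 for HK2, a 1.79-fold lower signal (adjusted p = 3.36e-10), and both high lines lay below both low lines. HK1 gave 0.25 ± 0.06 (adjusted p = 3.56e-04), but the 2 classes were interleaved, and the value was -0.99 without HL60 and -0.34 without KG1a. PGAM1 gave 0.03 ± 0.09 (adjusted p = 0.767) and LDHA -0.18 ± 0.08 (adjusted p = 0.0698). Thus 1 gene was called higher, where 28.4% of all genes were, and 1 lower, where 33.5% were. LDHA passed without HL60 control C (-0.25, adjusted p = 0.00874), KG1a control A (-0.21, adjusted p = 0.0434) or U937 control C (-0.23, adjusted p = 0.0179).

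Other enzymes of the pathway came from a list of 22 genes, of which 10 had a named row and 6 were kept. For the mean of lines 4 of these 6 fell and 0 rose, with a median difference of -0.17 against -0.01 over all genes, of which 16.1% fell and 16.3% rose. The 4 include PGAM4, whose signal cannot be told apart from that of PGAM1 with certainty, so the PGAM1 fall may be counted again here. TPI1, triose phosphate isomerase, fell by 0.25 ± 0.06 (adjusted p = 0.00146), PGK1, the ATP-forming phosphoglycerate kinase, by 0.14 ± 0.04 (adjusted p = 0.00326), GAPDH, which precedes it, by 0.20 ± 0.06 (adjusted p = 0.00671), and PGAM4 as given above. GPI, glucose-6-phosphate isomerase, was at -0.09 (adjusted p = 0.0901), and LDHB, the other main lactate dehydrogenase subunit, at -0.08 (adjusted p = 0.172). In HL60, TPI1 (-0.39 ± 0.12) and GAPDH (-0.37 ± 0.11) fell, and no gene of the list passed in KG1a, MOLM14 or U937. The count for the mean was 2 without HL60 or without MOLM14, and 0 with each line as 1 value. HK3, HKDC1, PGAM2 and LDHC, relatives of the 4 genes, had group means under 4.02 throughout. Among untreated cells 5 of the 6 were called lower in the high OXPHOS class, where 33.5% of all genes were, with PGK1 at -0.57 and GPI at -0.50, and TPI1, LDHB and GAPDH at -0.26 to -0.24. For LDHB the classes were interleaved, with 8.80 in MOLM14 of the high class and 8.52 in U937 of the low class. For GPI and GAPDH they nearly met. GPI averaged 9.25 in HL60 and 9.20 in KG1a, with U937 apart at 9.97, and GAPDH averaged 8.10 in U937 and 8.05 in MOLM14.

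Of 10 listed genes that set the flow of glucose 3 were tested, and 2 fell for the mean of lines, where 16.1% of all genes fell. They were TXNIP, a glucose-responsive arrestin that limits glucose uptake (-1.25 ± 0.06, adjusted p = 1.15e-13), and its relative ARRDC4 (-0.74 ± 0.07, adjusted p = 3.96e-08). Both fell in HL60, KG1a and MOLM14, and neither passed in U937, at -0.23 (adjusted p = 0.202) for TXNIP and 0.25 (adjusted p = 0.270) for ARRDC4. In U937, ARRDC4 lay under 4.02 in both groups, at 3.76 with metformin and 3.51 in untreated cells, so a fall there could hardly be seen. It also lay under 4.02 in metformin-treated MOLM14, at 3.93. TIGAR, which lowers a regulatory fructose bisphosphate, was at -0.15 (adjusted p = 0.166). Of 10 transporter genes only BSG, the partner protein of lactate carriers, had a named row, and it fell by 0.17 ± 0.04 (adjusted p = 0.00156).

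Where pyruvate enters mitochondria, 2 of 9 tested genes rose and 2 fell, against 16.3% and 16.1% of all genes. PCK2, the mitochondrial enzyme that makes phosphoenolpyruvate, rose by 0.73 ± 0.05 and MPC1, a subunit of the pyruvate carrier, by 0.15 ± 0.05. MPC1 passed in HL60 (0.46) and in no other line, with -0.07 in KG1a and 0.03 in MOLM14. The list's count of higher genes was 1 without HL60, without U937 or with each line as 1 value. DLAT, a subunit of pyruvate dehydrogenase, fell by 0.24 ± 0.04 and PDP1, the phosphatase that activates this enzyme, by 0.19 ± 0.04. In the pentose phosphate pathway 1 of 6 tested genes rose, RPE (0.44 ± 0.09), and 1 fell, RPIA (-0.19 ± 0.05), both of which act on ribulose phosphate, again counts close to the shares over all genes. In HL60, 4 of these 6 rose and 1 fell, where 15.5% of all genes rose and 9.56% fell.

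In the branches that leave glycolysis for serine and for hexosamines, 6 of 9 tested genes rose and 3 fell. Over all genes 16.3% rose and 16.1% fell. The list's median was 0.42, against -0.01 over all genes. The serine synthesis enzyme genes PSAT1 (0.97 ± 0.03), PHGDH (0.57 ± 0.04) and PSPH (0.42 ± 0.04) rose, as did SHMT2 (0.46 ± 0.04), which passes serine carbon to folate in mitochondria. PSAT1 passed in all 4 lines, PHGDH in all but MOLM14, PSPH only in HL60 and KG1a, and SHMT2 only in HL60 and U937. GFPT1, the first enzyme of the hexosamine pathway, rose by 0.30 ± 0.05 and OGT, which attaches its product to proteins, by 0.42 ± 0.04. OGT passed in all 4 lines. GFPT1 passed in HL60 (0.69) and U937 (0.31), with 0.02 in KG1a and 0.16 in MOLM14. SHMT1 (-0.21), the cytosolic counterpart of SHMT2, and the hexosamine pathway genes UAP1 (-0.18) and GNPNAT1 (-0.17) fell, named here after their values were seen. The hexosamine genes were thus split, with 2 higher and 2 lower.

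Of 7 tested genes of transcription factors that act on glycolysis genes, 1 rose and 1 fell. These counts are close to the shares over all genes, 16.3% and 16.1%. MAX, the partner of MYC, rose by 0.22 ± 0.04 and EPAS1, which encodes HIF-2 alpha, fell by 0.17 ± 0.06 (adjusted p = 0.0306). EPAS1 passed in no single line and lay under 4.02 in HL60, at 3.22 with metformin and 3.39 in untreated cells. Its largest difference, -0.39 ± 0.12 in KG1a (adjusted p = 0.0794), also lay close to 4.02, at 3.87 with metformin and 4.26 in untreated cells. The list's count of lower genes was 0 without HL60 control C, HL60 metformin B, KG1a control B, KG1a metformin A, MOLM14 control C, MOLM14 metformin C, U937 control C or U937 metformin A, without KG1a or U937, without the 3 arrays set apart and with each line as 1 value. Its count of higher genes was 0 without HL60 or with each line as 1 value. MYC itself did not pass for the mean (0.10 ± 0.04, adjusted p = 0.0735), and rose in HL60 (0.27 ± 0.08, adjusted p = 0.0225) and MOLM14 (0.29 ± 0.08, adjusted p = 0.0462), with -0.24 ± 0.08 in U937 (adjusted p = 0.0554). Of 7 other HIF target genes 1 rose and 2 fell, where 16.3% of all genes rose and 16.1% fell. VEGFA, the vascular growth factor gene, rose by 0.86 ± 0.05, against falls of 0.52 ± 0.05 for BNIP3 and 0.29 ± 0.05 for BNIP3L, both mitophagy receptor genes. The lists were not tested as sets.

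**Figure D4:**
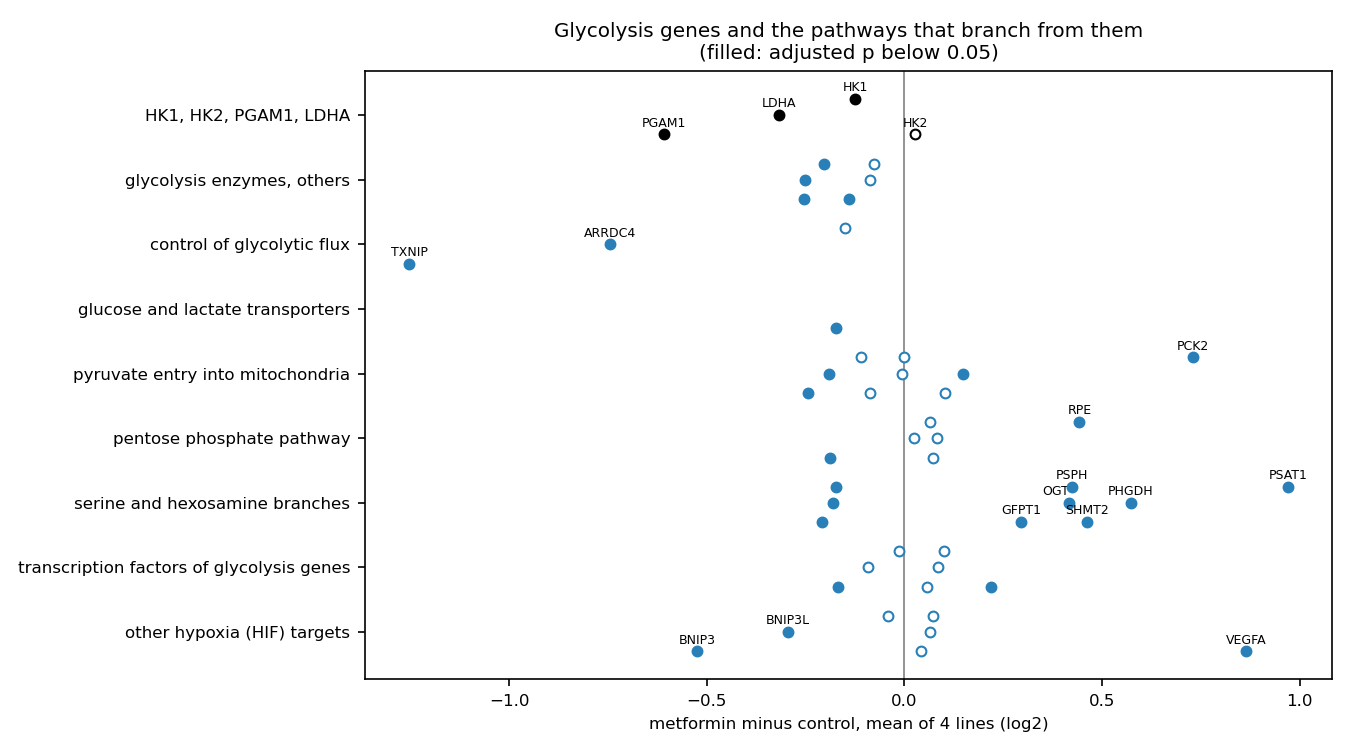
Metformin minus control averaged over 4 lines (log2) for HK1, HK2, PGAM1 and LDHA (black) and the tested genes of each list (blue), filled where the adjusted p is under 0.05. PGAM1 lies lowest among the enzymes, TXNIP lowest of all shown, and PSAT1 highest.

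Each gene's pattern over the 24 arrays was set against all kept genes by Pearson correlation, as a description in which line differences weigh most and the arrays share line and treatment. The closest to HK1 were NHSL2 (0.987), SDC4 (0.983) and LINC00847 (0.983). The closest to HK2 were QSOX2 (0.965), ZNF175 (0.963) and TMED4 (0.958). For PGAM1 they were HSPH1 (0.937), a heat shock protein gene, MRPS12 (0.929), a mitochondrial ribosomal protein gene, and CDC37 (0.921), a co-chaperone gene. For LDHA they were SRSF6 (0.889), DDX23 (0.878) and BZW1 (0.877), a weaker likeness. The 4 genes resembled each other little, from -0.56 for HK2 with PGAM1 to 0.42 for HK2 with LDHA, and PGAM1 with LDHA, which both fell with metformin, had 0.11.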

How the data were processed

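RNA of the 24 samples was labelled from 250 ng total RNA, per the labels' protocols. The authors deposited 1 table of normalized log2 signals (53617 rows, values 1.88 to 14.19). The log base was judged from the values, and Partek is named per the submitters' processing notes; for background correction, normalization and genome build the method is not given in the sources used here. A gene was named in 16098 rows and in none several; 37519 rows are unnamed here. All 16098 identifiers matched RefSeq (GRCh38.p14). The row with the highest mean stood for a gene.

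The 10641 genes with a group mean of at least 4.02 were fitted with limma 3.58.1 (R 4.3.3) as 8 groups, with 16 residual degrees of freedom. The fit was tested on simulated data. The number of arrays limits the precision. Permutations and correlations were computed in Python 3.11.15.

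The genes and lists were chosen with earlier results of these data known. Named genes are the 4, up to 6 per list that passed for the mean with the smallest adjusted p and 2 per line, the 3 closest by correlation, and copies. Alternatives were other normalization, centring, filters, moderation, a replicate block, fewer arrays or lines, and fits on subsets. Replicate letters were not taken as pairs. Deviations of same-letter metformin and control arrays correlated at -0.062 to 0.146 (median 0.046), over 0.1 in 1 of 12 pairs. Different letters gave -0.119 to 0.142 (median -0.004), over 0.1 in 1 of 24 pairs. In HL60 the same letters gave 0.062, 0.072 and 0.146, above every different-letter pair of that line, so a shared origin by letter is not settled.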

Additional observations from a re-analysis of the deposited data

Results flagged for a closer look

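A few metformin responses differed between lines or classes by a test of the difference itself. PGAM1 responded differently across the 4 lines (F = 6.65, adjusted p = 0.0281), with HL60 minus KG1a at -0.72 and HL60 minus MOLM14 at -0.67 (log2), and its response in the high OXPHOS lines minus that in the low OXPHOS lines was 0.51. For HK1 the response in HL60 minus that in MOLM14 was -0.39, and the high minus low class difference was 0.27 (adjusted p = 0.0448). No search for single outlying arrays was run here, since groups of 3 arrays are too small for it. The 3 arrays set apart were taken from earlier work on these data.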

How the results depend on the processing

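Across 106 results and their alternatives, 3259 of 3424 values kept their direction and side of the threshold, 103 no longer passed, 21 newly passed, 38 counts or untested values moved and 3 reversed. The PGAM1 falls in HL60, U937 and the mean passed in all settings run, as did the LDHA fall in HL60. With each line as 1 value the mean of LDHA was -0.32 (adjusted p = 0.0569), that of HK1 -0.12 (0.360), 0 other glycolysis enzymes were lower, against 4, and 3 genes of the serine and hexosamine list rose and 0 fell, against 6 and 3. Fits of 6 arrays gave HK1 in HL60 at -0.32 (0.0531) and LDHA in U937 at -0.43 (0.0602). HK1's mean was -0.10 without the 3 arrays set apart (0.0804), -0.060 without HL60 and -0.10 without U937; the glycolysis count was 2 without HL60 and 2 without MOLM14. The HK1 class response was 0.26 with quantile normalization (0.0787), 0.25 centred, 0.27 with no filter (0.0628), 0.27 with trend and robust moderation (0.0739), 0.21 without the 3 arrays (0.143), and 0.20, 0.33 and 0.20 without HL60, KG1a and MOLM14. With the replicate letter as a block it was 0.27 (0.0542), and HK1 in HL60 minus MOLM14 was -0.39 (0.0564). The LDHA class response passed with quantile normalization (0.34, 0.0331) and without the 3 arrays (0.49, 0.00240), as did its F test then (9.77, 0.00851). Removing these arrays had to widen the LDHA falls in HL60 and U937. The untreated LDHA class difference passed with trend and robust moderation (-0.18, 0.0481) and at -0.30 without the 3 arrays, -0.34 without KG1a and -0.44 without U937. Untreated HK1 reversed to -0.99 without HL60 and -0.34 without KG1a; untreated PGAM1 was 0.44 without KG1a and -0.37 without MOLM14. PGAM1's class response was 0.33 without HL60 and 0.49 without KG1a. The cause was not tested.

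Leaving out single arrays kept 2450 of 2544 values. Ranges were -0.18 to -0.13 for HK1 minus HK2 change, 3.38 to 6.10 for F of HK1, 0.24 to 0.30 for its class response, -0.55 to -0.36 for LDHA in U937, 0.26 to 0.39 for its class response, -0.25 to -0.12 for its untreated class difference, 4.78 to 11.2 for F of PGAM1 and -0.53 to -0.20 for PGAM1 in MOLM14. The share of genes called, over all settings, was 17.0% to 36.7% in HL60, 0.78% to 4.83% in KG1a, 2.89% to 9.12% in MOLM14, 7.96% to 26.6% in U937 and 4.38% to 45.8% for the mean. A second row per gene was not run, since each of the 4 genes has 1 row.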
